A study of Mus musculus with 4 samples.

Results

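The genes described here are 10 mouse genes for ATP-dependent chromatin remodellers: Smarca4, Smarca2, Arid1a, Arid1b, Smarca5, Ino80, Ino80d, Chd4, Chd1 and Chd7. They are 10 of the 21631 protein-coding genes of the annotation, listed by name with earlier results of these data known. Their peaks were selected by position in the deposited lists: every peak in a gene or within 1 kb of it, and any other peak for which the nearest protein-coding gene end within 100 kb was that gene's. The farthest peaks taken in lay 85.8 kb from Chd7 (−log10 q 3.96 and 6.86) and 85.5 kb from Arid1b, and the nearest left out lay 119.9 kb from Chd7, 120.2 kb from Smarca2 and 127.7 kb from Arid1b in the Gata2WT list, with a −log10 q of 1.97, 2.62 and 4.23. The rule gave the 10 genes 83 of the 49394 peaks listed for Gata2WT and 84 of the 44139 peaks listed for Gata2cKO. Since genes and peaks were both chosen from these lists, the counts are a description and carry no test.

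Accessible chromatin was measured by ATAC-seq, in which a transposase cuts and tags open DNA, in cells of female fetal mouse ovaries at E14.5, counted in embryonic days. There were 4 samples, 2 from Gata2WT and 2 from Gata2cKO embryos on the C57BL/6J background, with about 10000 cells in each library. Germ cells had been enriched with magnetic beads against SSEA1, a sugar antigen on the surface of early germ cells. Fathers carried 1 floxed Gata2 allele and Prdm1-Cre, and mothers were Gata2flox/flox, so all embryos of both groups inherited at least 1 floxed allele from the mother. The labels do not say which combinations of allele and Cre were counted as Gata2WT, which part of Gata2 the deletion removes, or whether embryos were pooled. Prdm1-Cre is active in the germ cell lineage and also in other cells that express Prdm1. The deposited data were 1 combined peak list for each genotype, so no spread between replicates could be measured and no p-value for a difference between genotypes is given. Where a list holds no peak, the signal did not pass the authors' threshold, and the site may still have been open. The annotation used gives no exons, so positions inside genes are not split into exon and intron.

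Chromatin remodellers are large complexes built around an ATPase that slides, evicts or exchanges nucleosomes. SMARCA4 and SMARCA2 are the alternative ATPases of SWI/SNF complexes, and ARID1A and ARID1B are the alternative DNA-binding subunits of the canonical form of that complex. SMARCA5 is the main ATPase of ISWI complexes, which space nucleosomes evenly. INO80 is the ATPase of the complex that bears its name, and INO80D is an accessory subunit of it. CHD4 drives the NuRD complex, which joins remodelling to histone deacetylation, CHD1 acts at transcribed genes, and CHD7 acts largely at enhancers. In the fetal ovary, germ cells of this age are leaving a pluripotency-related programme and entering meiosis, with wide changes in chromatin.

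Sequence around the start was listed for 7 of the 10 genes (RefSeq, GRCm38.p6), at 9 starts in all. Those below are shown because they carry a GATA word, because the start lay between peaks (Smarca5 and Chd4), or because a strong peak of the Gata2WT list alone lay over them (Ino80dos, a non-coding gene named for lying opposite Ino80d). Each is the 250 bases before the start, read 5′ to 3′ along the gene's strand, and capitals mark a GATA word, which is AGATAA or TGATAA, or either with G as the final letter, on either strand.
Ino80 chr2:119477688-119477937, minus strand: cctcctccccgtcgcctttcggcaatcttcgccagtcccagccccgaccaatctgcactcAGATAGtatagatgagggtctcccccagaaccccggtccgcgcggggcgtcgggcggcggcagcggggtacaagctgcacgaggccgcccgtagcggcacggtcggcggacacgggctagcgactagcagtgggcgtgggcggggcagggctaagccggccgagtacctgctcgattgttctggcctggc
Arid1a chr4:133756770-133757019, minus strand: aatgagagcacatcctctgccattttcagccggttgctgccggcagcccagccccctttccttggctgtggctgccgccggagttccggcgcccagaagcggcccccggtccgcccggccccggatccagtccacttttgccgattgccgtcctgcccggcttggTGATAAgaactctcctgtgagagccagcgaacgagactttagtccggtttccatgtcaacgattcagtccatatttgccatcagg
Chd4 chr6:125095731-125095980, plus strand: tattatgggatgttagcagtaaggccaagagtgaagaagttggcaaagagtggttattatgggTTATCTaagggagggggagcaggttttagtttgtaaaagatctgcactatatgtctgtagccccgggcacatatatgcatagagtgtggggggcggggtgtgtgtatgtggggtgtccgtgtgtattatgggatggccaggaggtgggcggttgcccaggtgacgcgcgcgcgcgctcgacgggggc
Smarca5 chr8:80739460-80739709, minus strand: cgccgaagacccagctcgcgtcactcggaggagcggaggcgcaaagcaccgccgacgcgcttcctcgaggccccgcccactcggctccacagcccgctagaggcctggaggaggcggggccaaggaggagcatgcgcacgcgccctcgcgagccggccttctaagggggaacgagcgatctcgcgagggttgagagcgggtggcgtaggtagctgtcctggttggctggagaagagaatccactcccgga
Ino80dos chr1:63114221-63114470, plus strand: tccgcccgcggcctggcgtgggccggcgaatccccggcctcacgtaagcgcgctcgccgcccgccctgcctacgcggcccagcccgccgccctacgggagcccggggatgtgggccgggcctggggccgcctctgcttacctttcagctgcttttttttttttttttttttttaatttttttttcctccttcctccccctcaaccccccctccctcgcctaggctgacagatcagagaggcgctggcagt
Ino80dos chr1:63114490-63114739, plus strand: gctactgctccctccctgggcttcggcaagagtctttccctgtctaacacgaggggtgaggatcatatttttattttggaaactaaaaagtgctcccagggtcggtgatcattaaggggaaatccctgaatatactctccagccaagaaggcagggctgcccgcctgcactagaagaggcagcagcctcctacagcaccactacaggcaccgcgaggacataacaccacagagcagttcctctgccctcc
A GATA word was present before 3 of the 9 starts, against 23.6% of the 21045 listed starts of all genes. It lay 190 bases before the start in Ino80, 85 bases before the upstream start in Arid1a and, on the reverse strand, 187 bases before the upstream start in Chd4. The windows of Ino80dos and Smarca5 held none. The GC box GGGCGG, searched on both strands, was present before 9 of 9 starts (43.1% of all starts). CCAAT was present before 2 of 9 (35.6%), in Ino80 and at the downstream start of Chd4. CCGGAAGT (3.83%) and CACGTG (6.7%) were not found in any of the 9 windows. A match is a description of the letters and not a bound site.

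At all 10 genes both lists held a peak within 1 kb of a gene end. The same held for 62.8% of protein-coding genes, while 33.6% had such a peak in neither list. Of the 83 Gata2WT peaks of the remodeller genes, 23 met no Gata2cKO peak by even 1 bp, a share of 27.7% (exact 95% binomial interval 18.4% to 38.6%, counting error only), against 27.7% of all Gata2WT peaks near genes. Of the 84 Gata2cKO peaks, 22 met no Gata2WT peak, or 26.2% (17.2% to 36.9%), against 19.3% of all Gata2cKO peaks near genes. The first share equals that of all peaks, and the interval of the second takes in the share of all peaks. Arid1b alone held 9 of the 22 peaks in Gata2cKO alone, and the other genes had 18 of 61 in Gata2WT alone (29.5%) and 13 of 58 in Gata2cKO alone (22.4%). Counting only peaks in the gene or within 1 kb of it, 20 of 64 were in Gata2cKO alone (31.2%, 20.2% to 44.1%). Of all such peaks it was 17.1%, a share below the interval but not matched for where the peaks lie. The remodeller genes had 16 of these peaks at gene ends and 48 inside, all genes 14002 and 16442. Of all Gata2cKO peaks, 4.51% at gene ends and 27.8% inside genes were in 1 list alone, and the part of location was not tested. Without Arid1b the count in Gata2cKO alone became 11 of 42 (26.2%, 13.9% to 42.0%), an interval that takes in 17.1%. In Gata2WT alone the same counting gave 18 of 61 (29.5%, 18.5% to 42.6%) against 24.8%.

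**Figure D1:**
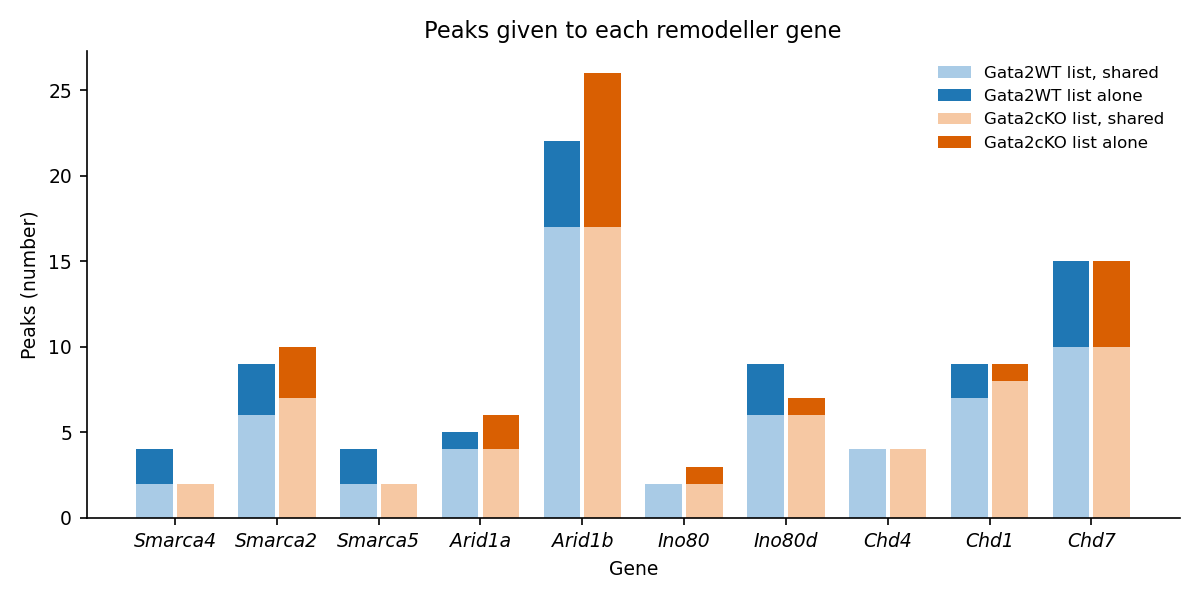
Number of peaks given to each remodeller gene in the Gata2WT (blue) and Gata2cKO (orange) lists. Pale parts are peaks shared by both lists and dark parts are peaks of 1 list alone. Arid1b had the most peaks, with 22 and 26, and Chd4 had no peak of 1 list alone.

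Most peaks of 1 list alone lay inside the genes. Inside genes they were 15 of 42 Gata2WT peaks (35.7%, interval 21.6% to 52.0%; all peaks inside genes 38.1%) and 20 of 48 Gata2cKO peaks (41.7%, 27.6% to 56.8%; all 27.8%). At gene ends they were 3 of 19 Gata2WT peaks (15.8%, 3.38% to 39.6%; all 7.17%) and 0 of 16 Gata2cKO peaks (interval up to 20.6%; all 4.51%). Outside the genes they were 5 of 22 (22.7%, 7.82% to 45.4%; all 34.8%) and 2 of 20 (10.0%, 1.23% to 31.7%; all 25.0%). In each of these 6 counts the interval took in the share of all peaks, though for Gata2cKO peaks inside genes only at its lower bound. Of the peaks of the remodeller genes, 50.6% lay inside the gene in the Gata2WT list, against 40.5% of all peaks near genes. In the Gata2cKO list it was 57.1% against 38.8%. Arid1b alone held 16 of the 42 Gata2WT and 20 of the 48 Gata2cKO peaks inside genes. The part of gene length in these shares was not tested.

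Strength is given as the deposited −log10 q of a peak, the evidence for it against local background within its own list. Neither list was scaled to the other, so values of a site in both lists are set side by side and no change is read from them. The Gata2WT value comes first in each pair, and a shared peak is given by its Gata2WT interval. Pileup, the number of fragments stacked at the summit, was recovered from the deposited values. Peaks of 1 list alone were weak: their median −log10 q was 3.29 for Gata2WT and 2.99 for Gata2cKO, against 7.26 and 7.16 for shared peaks of the same genes. All peaks near genes showed the same order, with medians of 2.84 and 2.86 in 1 list alone and 12.0 and 10.5 when shared, so the shared peaks of the remodeller genes had the lower medians. Their median pileups in 1 list alone were 12 and 12.5 fragments, against 21 and 21 for shared peaks. Median widths were 384 and 358 bp, against 638 and 591 bp. Between a −log10 q of 10 and 30, 1 of 17 Gata2WT peaks and 0 of 14 Gata2cKO peaks of these genes were in 1 list alone, and at 30 or more 0 of 11 and 0 of 11. Of all peaks near genes, 2.48% and 1.49% were in 1 list alone in the first of these classes, and 0.0% and 0.0116% in the other, so these counts are not particular to the remodeller genes. Between 2 and 5 it was 14 of 33 (42.4%; all peaks 52.1%) and 17 of 34 (interval 32.4% to 67.6%; all 38.6%).

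**Figure D2:**
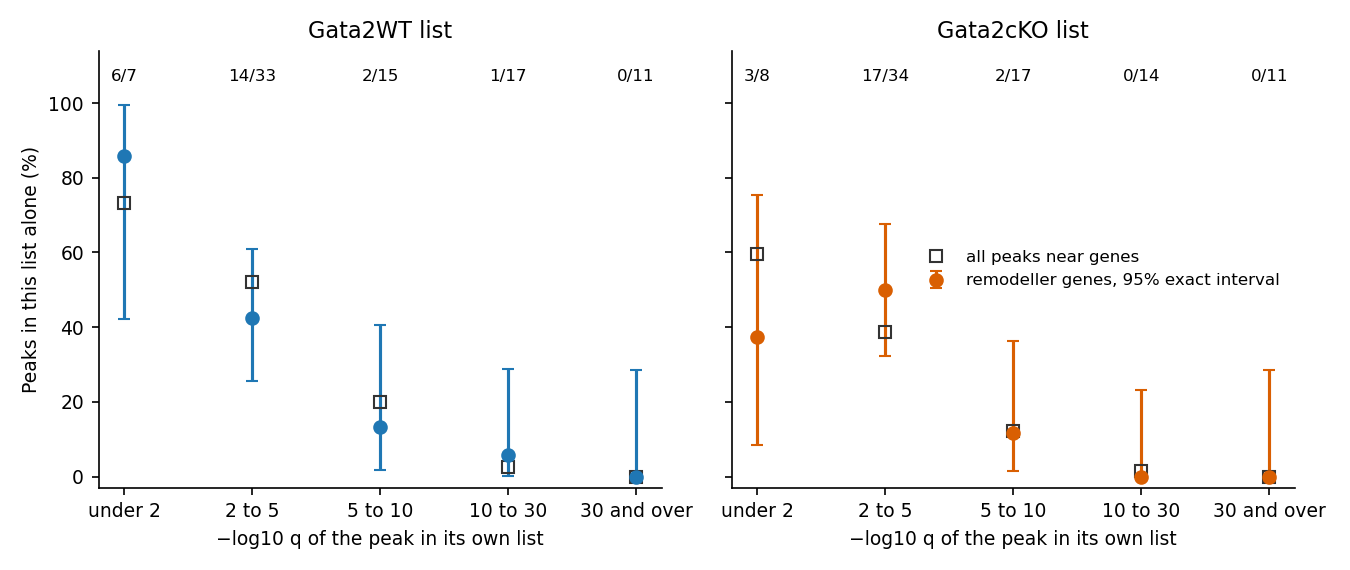
Share of peaks found in 1 list alone (percent) by their −log10 q, in the Gata2WT list (left) and the Gata2cKO list (right). Filled points are peaks of the remodeller genes with exact 95% binomial intervals and their counts above, and open squares are all peaks near genes. For the remodeller genes the share is 37.5% or more in each of the 2 weakest classes of both lists and 0 at a −log10 q of 30 or more.

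**Figure D3:**
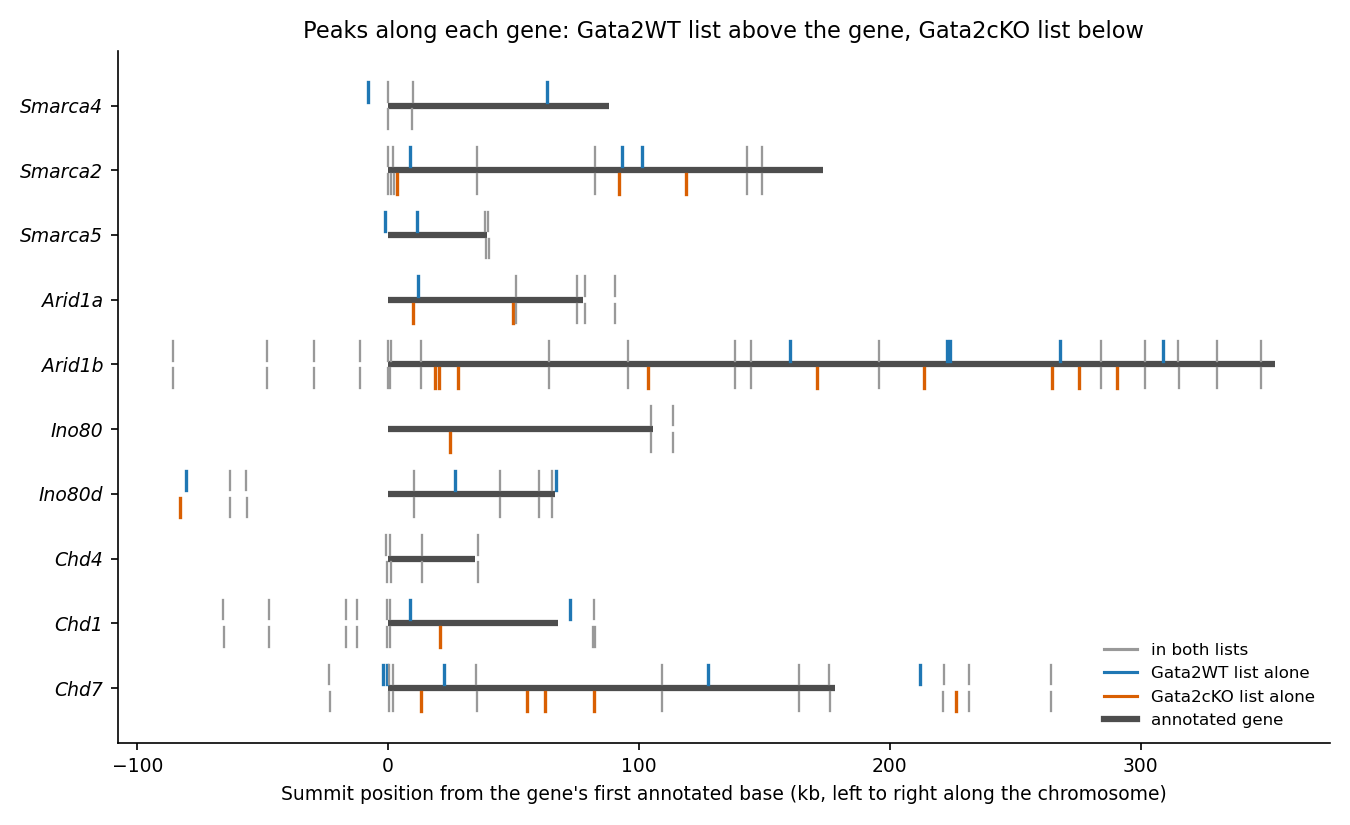
Summits of all peaks along each remodeller gene (kb from its first annotated base, left to right along the chromosome), with the Gata2WT list above the gene and the Gata2cKO list below. Grey ticks are peaks shared by both lists, blue and orange ticks are peaks of 1 list alone, and the thick line is the annotated gene. The coloured ticks lie mostly inside the long genes Arid1b, Smarca2 and Chd7.

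The SWI/SNF ATPase genes differed in how many peaks they held. Smarca4 (chr9:21616106-21704230, plus strand) had 4 Gata2WT and 2 Gata2cKO peaks. Its start lay under 1 strong peak, chr9:21615582-21616839, with a −log10 q of 82.97 and 138 fragments in Gata2WT, and 58.23 and 105 fragments in Gata2cKO. A weak peak 9.56 kb inside the gene was in both lists (−log10 q 2.09 and 1.23). Both peaks of the Gata2WT list alone were weak too: chr9:21608025-21608354, 7.75 kb before the gene, had a −log10 q of 3.96, and chr9:21678773-21679663, inside the gene, had 1.55. Smarca4 thus had the strongest start peak of the SWI/SNF genes among the 10 genes and little else above threshold.

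Smarca2 (chr19:26605073-26778321, plus strand) is a gene of 173.2 kb and had 9 Gata2WT and 10 Gata2cKO peaks, 3 of each in 1 list alone. Its start lay under chr19:26604605-26605562, with a −log10 q of 44.43 (101 fragments) and 26.83 (70 fragments). Downstream of it the Gata2WT list held 1 broad peak, chr19:26605911-26607693 (6.38, 1783 bp). There the Gata2cKO list held 2 narrower ones, of 307 and 798 bp (3.41 and 3.32). The strongest peak of the Gata2cKO list alone among all 10 genes, chr19:26608480-26608750, lay 3.41 kb inside Smarca2 with a −log10 q of 5.80 and 37 fragments. At the local background of the nearest Gata2WT peak, 29 fragments would have been listed. Further peaks inside the gene were shared, such as chr19:26747796-26748424 (10.98 and 9.40) and chr19:26687357-26687795 (4.82 and 10.49), and the strongest of the Gata2WT list alone was chr19:26613400-26613940 (4.76, 14 fragments). The peak in Gata2cKO alone was stronger than its shared neighbours at 3.41 and 3.32, while other shared peaks inside the gene were stronger than it.

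Of the genes for the alternative ARID subunits, Arid1a (chr4:133679008-133756769, minus strand) had 5 Gata2WT and 6 Gata2cKO peaks. Its upstream start lay under chr4:133756578-133757763, with a −log10 q of 44.19 (119 fragments) and 36.57 (95 fragments). A peak beside its downstream start, chr4:133754234-133754777, had 20.64 (85 fragments) and 32.45 (90 fragments). Which of these peaks was the stronger was the same in both lists. The peaks of 1 list alone were weak and inside the gene: 1 in Gata2WT (chr4:133690654-133691014, 2.80) and 2 in Gata2cKO (chr4:133688521-133688866, 3.97; chr4:133728654-133729001, 3.83). The last of these lay 553 bp from the shared peak chr4:133729554-133730265 (12.45 and 17.43).

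Arid1b (chr17:4994297-5347656, plus strand), at 353.4 kb the longest of the 10 genes, held the most peaks, 22 for Gata2WT and 26 for Gata2cKO. Of these, 5 were in Gata2WT alone and 9 in Gata2cKO alone, all inside the gene. None of these had a −log10 q above 4.89 (chr17:5014492-5014815, Gata2cKO, 17 fragments), and the strongest in Gata2WT alone had 4.76 (chr17:5303189-5303505, 14 fragments). The strongest Arid1b peaks were far from its ends and in both lists. One, chr17:5189513-5190258, lay 157 kb from the nearer end with a −log10 q of 85.21 (115 fragments) and 63.69 (89 fragments). The other, chr17:4907945-4908846, lay 85.5 kb before the gene, at an end of the non-coding gene Gm34507, with 89.02 (115 fragments) and 62.75 (86 fragments). The peaks at the start were weaker: chr17:4994910-4996042 had 23.67 and 32.56, and chr17:4994028-4994545 had 21.60 and 11.78. Further shared peaks lay at chr17:4964137-4964804 (19.32 and 19.13) and, inside the gene, at chr17:5006983-5007678 (22.82 and 22.60).

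Smarca5, the ISWI ATPase gene (chr8:80699943-80739459, minus strand), had 4 Gata2WT and 2 Gata2cKO peaks. The 2 Gata2cKO peaks were both shared and lay on either side of the start base 80739459, which follows the sequence printed above. The peak upstream of it, chr8:80739605-80740267, had a −log10 q of 39.94 (68 fragments) and 34.82 (56 fragments), and the peak downstream of it, chr8:80738255-80739067, had 30.52 (58 fragments) and 13.92 (33 fragments). The peaks in Gata2WT alone lay 0.894 kb beyond the far end of the gene (chr8:80698674-80699049, 5.34, 14 fragments) and inside it (chr8:80711111-80711667, 2.62, 10 fragments). Both had far fewer fragments than the peaks beside the start.

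Ino80 (chr2:119373042-119478685, minus strand) is a gene of 105.6 kb and had 2 peaks for Gata2WT and 3 for Gata2cKO. Its start peak, chr2:119476835-119478340, covered the start whose GATA word is shown above, with a −log10 q of 63.54 (111 fragments) and 78.41 (123 fragments). Leaving out a peak that Chd4 has in common with Nop2, it was the strongest gene-end peak of the 10 genes in the Gata2cKO list and the third strongest in the Gata2WT list, after those of Chd1 and Smarca4. A shared peak 7.62 kb outside the gene, chr2:119486305-119487100, had 4.02 (12 fragments) and 12.84 (22 fragments). The 1 peak in Gata2cKO alone, chr2:119397361-119397819, had 2.19 and 9 fragments, and the Gata2WT list held no peak inside Ino80 away from its ends.

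Ino80d (chr1:63047801-63114267) had 9 Gata2WT and 7 Gata2cKO peaks and carried the strongest peak of 1 list alone among the 10 genes. This peak, chr1:63114295-63114808 in the Gata2WT list, lay 0.028 kb beyond the last base of Ino80d, across the start of Ino80dos shown above, with a −log10 q of 23.19, a fold enrichment of 6.46 and 49 fragments over a local background of 6.74. By −log10 q it ranked 8 among the 14060 peaks in Gata2WT alone and was stronger than 76.0% of all Gata2WT peaks. The nearest Gata2cKO peak lay 755 bp away. At that peak's local background of 4.84 fragments, a pileup of 13 would have passed the smallest p in the lists. The neighbouring gene-end peak, chr1:63112971-63113839, was in both lists (14.97 with 39 fragments, and 12.95 with 31 fragments). In the Gata2WT list the last base of Ino80d thus lay between 2 peaks, and in the Gata2cKO list only the one inside the gene was listed. The other Ino80d peaks of 1 list alone were weak: chr1:63074404-63074661 (4.05) and chr1:62966737-62967312 (3.02) in Gata2WT, and chr1:62964466-62964797 (3.76) in Gata2cKO, 1940 bp from the nearest Gata2WT peak.

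Chd4, the NuRD ATPase gene (chr6:125095980-125130591, plus strand), had 4 peaks in each list, all shared. At or beside its starts lay the weakest leading gene-end peaks of the 10 genes: chr6:125095076-125095467 had a −log10 q of 2.09 (19 fragments) and 5.20 (24 fragments), and chr6:125096147-125097431 had 5.22 (25 fragments) and 5.12 (23 fragments). In the Gata2WT list the last of these peaks covered the downstream start. A peak inside the gene, chr6:125109495-125109799, had 4.34 and 6.09. The strong peak counted at the other end of Chd4, chr6:125131342-125132245 (76.33 and 65.45), also lay within 1 kb of an end of Nop2, a nucleolar methyltransferase gene, and cannot be given to Chd4 alone.

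Chd1 (chr17:15704967-15772612) had the strongest gene-end peak of the 10 genes in the Gata2WT list. That peak, chr17:15704313-15705190, had a −log10 q of 87.85 (130 fragments) and 64.63 (99 fragments), and another just inside the gene, chr17:15705547-15706188, had 23.38 and 15.09. Chd1 had 9 peaks in each list. The 2 in Gata2WT alone were chr17:15777452-15777918, 4.84 kb beyond the gene (6.45, 15 fragments), and chr17:15713568-15713837 (3.29), and the 1 in Gata2cKO alone was chr17:15725294-15725758 (4.38, 14 fragments). Outside the gene the shared peak chr17:15692319-15692704 had 12.52 (26 fragments) and 4.90 (16 fragments).

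Chd7 (chr4:8690402-8868449), a gene of 178.0 kb, had 15 peaks in each list, of which 5 in each were in 1 list alone. Its strongest gene-end peak, chr4:8690506-8690870, had a −log10 q of 20.98 (45 fragments) for Gata2WT and 6.65 (23 fragments) for Gata2cKO. Next to it stood 2 peaks in Gata2WT alone, chr4:8689893-8690200 (4.97, 23 fragments) and chr4:8688085-8688360 (4.58, 22 fragments). For the first of these, 13 fragments would have been listed at the local background of the nearest Gata2cKO peak, 305 bp away. The strongest Chd7 peak lay 52.9 kb beyond the other end, chr4:8921375-8922312, with 32.97 and 35.10 and 60 fragments in each list. Between it and the gene, chr4:8911010-8912038 had 10.93 and 15.59, chr4:8902360-8902734 was in Gata2WT alone (4.82) and chr4:8916386-8916758 was in Gata2cKO alone (5.70, 21 fragments). The other 4 peaks in Gata2cKO alone were all inside the gene, the strongest of them chr4:8772351-8772717 (4.84). Around Chd7, then, the peaks of 1 list alone near the first base were in Gata2WT, and of those inside the gene 2 were in Gata2WT and 4 in Gata2cKO.

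**Figure D4:**
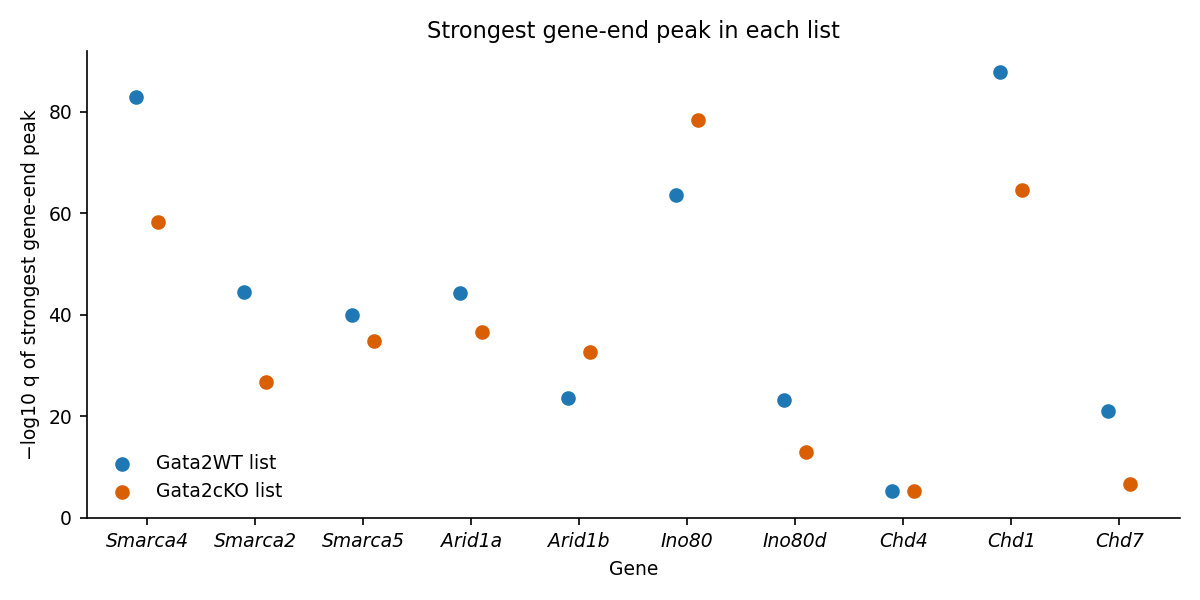
Deposited −log10 q of the strongest gene-end peak of each remodeller gene in the Gata2WT (blue) and Gata2cKO (orange) lists, leaving out the peak at the end of Nop2. Values run from 5.22 (Chd4) to 87.85 (Chd1) for Gata2WT and from 5.20 (Chd4) to 78.41 (Ino80) for Gata2cKO, and the lists were not scaled to each other. For Ino80d and Chd4 the values of the 2 lists come from different peaks.

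In the plot of strongest gene-end peaks, Ino80 and Arid1b had the higher value in the Gata2cKO list and the other genes in the Gata2WT list. The values of Ino80d (23.19 and 12.95) and Chd4 (5.22 and 5.20) belong to different peaks in each list. As −log10 q depends on the depth of its own pool, this order was not read as a difference. Local background at the remodeller peaks ran from 2.19 to 22.8 fragments in Gata2WT and from 2.01 to 17.0 in Gata2cKO.

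A peak lay over the start base at 6 of the 9 listed starts for Gata2WT and at 5 for Gata2cKO (56.4% and 55.6% of all listed starts). The start base lay between peaks, with one within 1 kb on each side, at 2 starts for Gata2WT and 3 for Gata2cKO, against 1.38% and 1.16% of all starts. These were Smarca5 and the upstream start of Chd4 in both lists, and the downstream start of Chd4 in the Gata2cKO list. The Chd4 starts, at bases 125095981 and 125096163, lay in the same gap between the same Gata2cKO peaks, so that gap was counted for each of them. The downstream start of Arid1a had a peak on 1 side in both lists. No start of these genes lacked a peak, whereas 35.1% and 36.3% of all starts did. GC content moved with these classes: the median over the 250 bases before the start was 74.8% (Gata2WT) and 74.4% (Gata2cKO) for all starts between peaks, 61.2% and 61.6% for starts under a peak, and 46.0% and 46.4% for starts with no peak. It was 69.2% for Smarca5 and 54.0% and 67.6% for the Chd4 starts, and its part in these counts was not tested.

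**Figure D5:**
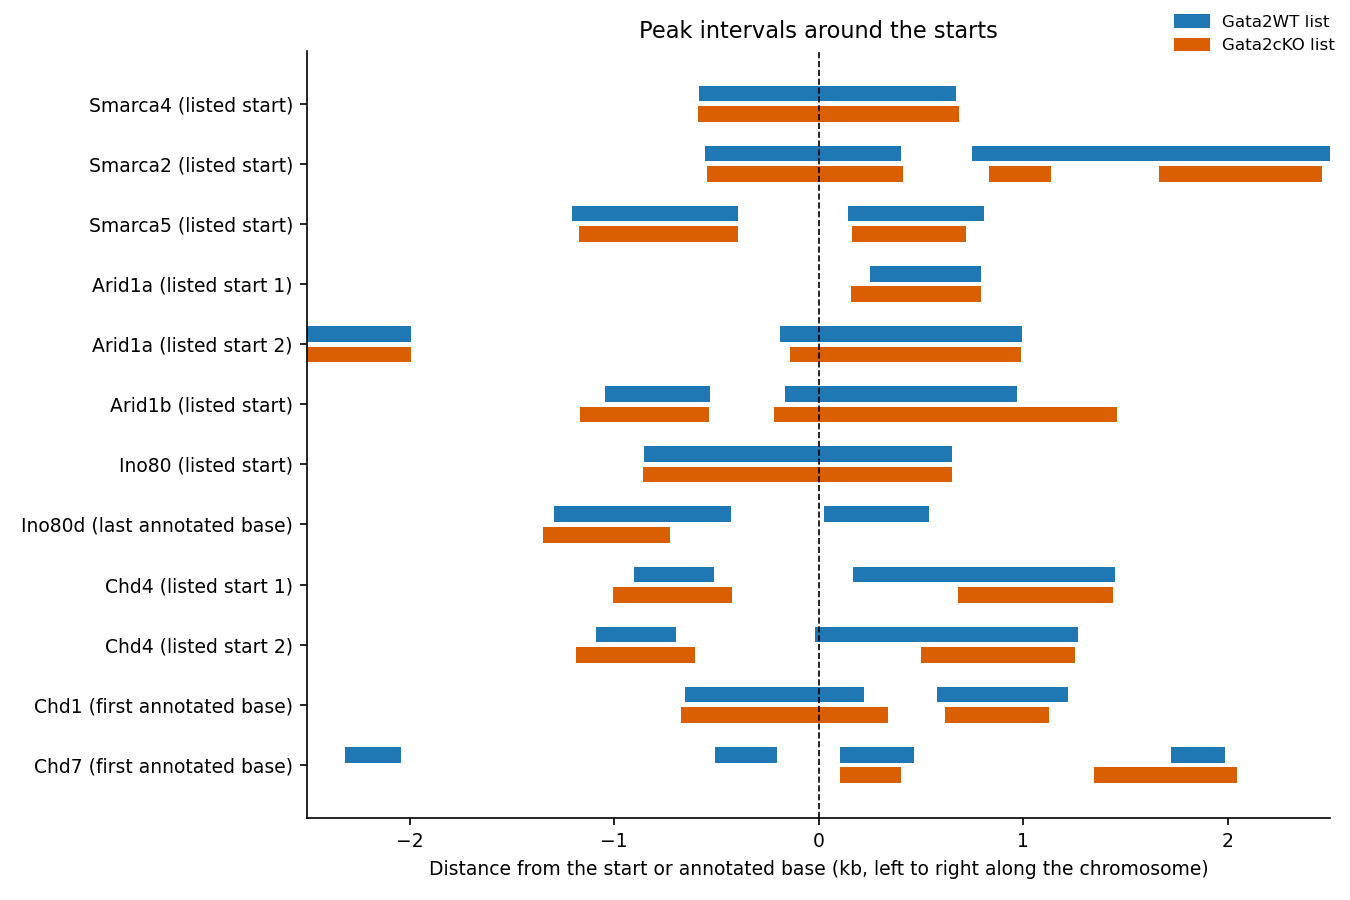
Peak intervals of the Gata2WT (blue) and Gata2cKO (orange) lists within 2.5 kb of each listed start, or of the annotated end with the strongest peak where no start was listed (Ino80d, Chd1 and Chd7). The dashed line at 0 kb is the start or annotated base, and positions run left to right along the chromosome. At Smarca5 the line falls between 2 peaks in both lists, and at Ino80d the blue bar just right of the line has no orange counterpart.

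The long genes differed in how densely peaks lay inside them. Per 100 kb of gene, Smarca2 had 4.04 peaks for Gata2WT and 4.62 for Gata2cKO, Arid1b had 4.53 and 5.66, and Chd7 had 3.93 and 5.05. Over all 2427 genes of at least 100 kb the medians were 1.33 and 0.94, the upper quartiles 2.86 and 2.48 and the 90th percentiles 4.78 and 4.05. These 3 genes thus lay above the upper quartile in both lists and above the 90th percentile in the Gata2cKO list. Ino80, the other gene of that length, had 0.0 and 0.95. For peaks of 1 list alone the densities were 1.73 and 1.73 in Smarca2, 1.41 and 2.55 in Arid1b, and 1.12 and 2.25 in Chd7. All long genes had upper quartiles of 1.19 and 0.78 and 90th percentiles of 2.0 and 1.43. These 3 genes thus lay above the 90th percentile for Gata2cKO alone. For Gata2WT alone they lay below it, and Chd7 also lay below the upper quartile.

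Another 76 remodeller genes, in 6 lists, were read in the same way: further subunits and partners of the SWI/SNF, ISWI and NuRD complexes, INO80 subunits together with those of the related SRCAP and TIP60 complexes, and other CHD and SNF2 family remodellers. Both lists held a gene-end peak at 73 of them, and neither list did at 1, Baz1a. None had one in Gata2WT alone (2.29% of all genes), and 2 had one in Gata2cKO alone (1.3% of all genes): Baz2a, an ISWI partner (chr10:128091085-128091390, −log10 q 4.21), and Chd3, a NuRD ATPase gene (chr11:69368288-69368800, 3.24). Peaks in Gata2WT alone were 67 of 269 (24.9%, interval 19.9% to 30.5%) and peaks in Gata2cKO alone 55 of 259 (21.2%, 16.4% to 26.7%), with both intervals taking in the shares of all peaks. By complex, the share in Gata2WT alone ran from 5 of 46 (10.9%, 3.62% to 23.6%) for INO80, SRCAP and TIP60 subunits to 20 of 43 (46.5%, 31.2% to 62.3%) for the ISWI list, where all peaks had 27.7%. The interval lay below that share for the former and above it for the latter. In Gata2cKO alone the former had 9 of 51 (17.6%, 8.4% to 30.9%) and the ISWI list 11 of 35 (31.4%, 16.9% to 49.3%). Both of these intervals took in the 19.3% of all peaks, and the ISWI share was the higher one in each list. Of the 20 ISWI peaks in Gata2WT alone, 8 were at Baz2b and 5 at Cecr2. For Gata2WT these were the lowest and highest of the 6 lists, and the 27.7% was not matched for where the peaks lie. Of all Gata2WT peaks at gene ends, 7.17% were in Gata2WT alone, and the part of location was not tested. The SWI/SNF subunits had 19 of 78 (24.4%) in Gata2WT alone and 11 of 70 (15.7%) in Gata2cKO alone, the NuRD subunits 10 of 50 (20.0%) and 16 of 56 (28.6%), beside 27.7% and 19.3% of all peaks.

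The Gata2 gene had 5 Gata2WT and 3 Gata2cKO peaks, and its gene-end peak chr6:88193999-88194533 (4.27) was in the Gata2WT list alone. Of 8 germ cell markers, 7 had one in both lists, among them Ddx4 and Dazl, and Nanos3 had none. Gene-end peaks in both lists were also found at 5 of 8 supporting cell, 5 of 8 stromal, 5 of 8 endothelial and 3 of 8 blood and macrophage markers, where 62.8% of all genes had them. Nr5a1, Gata4, Cdh5 and Ptprc had none, and Amhr2 (supporting) and Nr2f2 (stromal) had one in Gata2WT alone. Peaks in Gata2WT alone were 19 of 40 (47.5%, 31.5% to 63.9%) at supporting cell markers, 5 of 28 at germ cell, 6 of 34 at stromal, 10 of 33 at endothelial and 0 of 6 at blood markers (all peaks 27.7%). Peaks in Gata2cKO alone were, in that order, 3 of 24 (12.5%, 2.66% to 32.4%), 6 of 29, 4 of 34, 6 of 30 and 3 of 10 (all peaks 19.3%). The share of such cells in each pool, and its part in the remodeller gene peaks, was not tested.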

How the data were processed

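ATAC-seq was made from 4 samples, 2 Gata2WT and 2 Gata2cKO, grouped by the labelled genotype. The submitters' processing notes name MACS2 2.2.6 (peak calling), bedtools 2.29.2, Picard 2.23.0, Bowtie2 2.3.5.1, Trimmomatic 0.39 and SAMtools, and the build GRCm38 (mm10). How replicates were combined, and tool settings: not given in the sources used here. For each summit, the deposited lists give a fold enrichment, a −log10 p, a −log10 q and a score (10 times the −log10 p, cut to a whole number). Fold enrichment is the ratio of pileup to local background, with the same small constant added to each. No deposited −log10 p was under 3.0. Reads per sample were not analysed here.

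Of the 58367 Gata2WT and 52241 Gata2cKO rows, the 58357 and 52236 on the 19 autosomes and X were used, and rows with the same interval were collapsed to 1 peak with its strongest summit. Overlap of 1 bp counted as shared. Genes came from a RefSeq table of GRCm38.p6, which gives no exons, and starts from a RefSeq promoter table that is not complete. Pileup and local background were solved from fold enrichment and −log10 p, with a misfit of at most 4e-05. A fragment is whatever unit the peak caller piled up. Pileup recovery, overlap and assignment were tested on simulated data. Python 3.11.15, pandas 2.3.3 and SciPy 1.17.1 (exact Clopper-Pearson intervals, covering counting error only) were used. The members and gene lists were chosen with earlier results of these data known. Named peaks are the strongest gene-end peaks, the strongest peaks of 1 list alone and strong peaks away from gene ends of each gene. Alternatives covered the overlap rule, peak threshold, list length, gene window, distance limit, peaks at other genes' ends and leaving out Arid1b.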

Additional observations from a re-analysis of the deposited data

How the results depend on the processing

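Of the alternative values of the leading results, 47 stayed within the spread set for them and 8 moved. With peaks called shared only when summits lay within 250 bp, the share of remodeller peaks in Gata2cKO alone was 38.1% (27.7% to 49.3%; all peaks 26.5%), and for the other remodeller genes it was 27.4%. With a −log10 q of at least 10 required in both lists it was 12.0% (3 of 25 peaks; all 9.57%), and for the other remodeller genes 9.01% in Gata2cKO alone and 17.2% in Gata2WT alone. At 5 or more the remodeller genes had 23.8% in Gata2cKO alone (10 of 42, 12.1% to 39.5%; all 14.0%). The other remodeller genes then had 8.7% in Gata2cKO alone (all 14.0%) and 13.6% in Gata2WT alone (all 19.6%). With the longer list shortened to equal length, these other genes had 17.4% in Gata2WT alone (all 22.4%).

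With equal list lengths the remodeller genes had 22.4% in Gata2WT alone and 27.4% in Gata2cKO alone (all peaks 22.4% in each). The shares without Arid1b given in the report were chosen after seeing the data. All 10 genes kept a gene-end peak in both lists under each alternative run for it except a −log10 q of at least 10, where Chd7 lost it and Chd4 had it only at the end of Nop2. Among alternatives for single genes 179 values stayed and 41 moved. With equal list lengths Arid1b had 2 peaks in Gata2WT alone in place of 5. Peaks of 9 to 15 fragments make up most of those in 1 list alone, which limits what these lists can tell apart. No paired analysis was possible because each list combines the replicates of its genotype, and for the same reason no replicate could be left out.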
